A study of Mus musculus with 8 samples.

Results

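The enzymes described here carry out glycolysis in skeletal muscle from hexokinase to enolase. They were chosen by name, and every array probe whose platform annotation carries one of 10 gene symbols (Hk2, Gpi1, Pfkm, Aldoa, Tpi1, Gapdh, Pgk1, Pgam2, Eno1 and Eno3) was taken. The rule found 13 probes of 8 of these genes among 25697 probes and 16593 named genes. No probe here carries the symbols Gpi1 or Eno1, so these enzymes are not analysed here. Gene expression was measured on 1-colour Illumina bead arrays in the tibialis anterior, a mostly fast-twitch muscle of the mouse shin. The p21 group held 4 muscles transfected with a plasmid for p21, an inhibitor of cyclin-dependent kinases encoded by Cdkn1a, and the control group held 4 muscles transfected with a control plasmid. Both groups used 8-week-old C57BL/6 males, whose muscles were taken on day 7 after the plasmids were introduced. No other allele or agent is named. The labels give neither the promoter of the plasmid, nor the share of fibers that took it up, nor which muscles share a mouse. The question put to these genes is whether their transcripts differ with p21 overexpression.

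Glycolysis converts glucose to pyruvate in the cytosol and makes ATP without oxygen. Fast muscle fibers rely on it during brief, intense contraction, and they hold its enzymes in great abundance. Several steps use a form of the enzyme that predominates in muscle, such as the M subunit of phosphofructokinase, the muscle phosphoglycerate mutase Pgam2 and the beta enolase Eno3, while other tissues use sister genes. Hexokinase, phosphofructokinase and, at the end, pyruvate kinase catalyse the irreversible steps that control the flow through the pathway. The steps from aldolase to enolase run close to equilibrium.

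Promoter sequences are shown for Hk2 and Pfkm, the members with a probe past the threshold of the test, and for Pgam2, a member of the muscle-predominant kind whose probe was not past it. They are the 250 bases before a start site in the RefSeq promoter table for GRCm38.p6, written 5′ to 3′ on the strand of the gene. All 10 listed genes matched that table, with 17 windows, since some genes have several start sites. Capitals mark 2 motifs searched on both strands. The first is CANNTG, the E-box bound by myogenic and other helix-loop-helix factors. The second is ACGTG, called the hypoxia core here since hypoxia-inducible factors bind elements that hold it. Matches of the motifs can overlap, and each is then counted. Hk2 lies at chr6:82774455-82774704 (minus strand), the first listed Pfkm start at chr15:98092339-98092588 and the last listed one at chr15:98111810-98112059 (both plus strand), and Pgam2 at chr11:5803797-5804046 (minus strand).
Hk2: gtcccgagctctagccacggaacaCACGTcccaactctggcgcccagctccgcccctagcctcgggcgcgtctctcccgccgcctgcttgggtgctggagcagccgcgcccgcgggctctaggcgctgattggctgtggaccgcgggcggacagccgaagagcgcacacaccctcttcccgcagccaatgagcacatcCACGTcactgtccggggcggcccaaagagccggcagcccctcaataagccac
Pfkm first start: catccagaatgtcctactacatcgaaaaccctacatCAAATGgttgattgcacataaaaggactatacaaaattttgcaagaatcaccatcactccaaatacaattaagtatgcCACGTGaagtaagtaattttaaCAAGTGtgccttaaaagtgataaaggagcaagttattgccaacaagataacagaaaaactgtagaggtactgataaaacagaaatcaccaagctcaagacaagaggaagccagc
Pfkm last start: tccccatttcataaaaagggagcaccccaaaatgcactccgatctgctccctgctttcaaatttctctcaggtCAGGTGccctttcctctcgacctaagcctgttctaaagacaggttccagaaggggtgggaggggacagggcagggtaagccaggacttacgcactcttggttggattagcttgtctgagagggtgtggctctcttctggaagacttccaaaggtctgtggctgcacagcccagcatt
Pgam2: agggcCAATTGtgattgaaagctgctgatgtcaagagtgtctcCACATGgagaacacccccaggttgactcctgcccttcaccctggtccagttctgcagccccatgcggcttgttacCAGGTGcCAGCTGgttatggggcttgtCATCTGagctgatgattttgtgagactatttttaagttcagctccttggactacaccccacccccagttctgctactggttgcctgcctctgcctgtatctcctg
The Hk2 window held 2 hypoxia cores and no E-box. The first Pfkm window held 3 E-boxes and 2 hypoxia cores that overlap an E-box, and the last held 1 E-box. The Pgam2 window held 5 E-boxes and no hypoxia core. An E-box occurred in 12 of the 17 windows (70.6%), against 66.2% of 32851 windows of the same length over all genes. A hypoxia core occurred in 6 of 17 (35.3%), against 16.6% of all windows. Windows of a gene can overlap, and a match describes letters, not binding. Which Pfkm start the probes read is not given in the sources used here.

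Values are log2 probe intensities as deposited, from 8.13 to 15.27 on every array with a median of 8.39. A change is the p21 mean less the control mean, in log2 units ± SE, from limma over all probes with Benjamini-Hochberg adjustment and a threshold of adjusted p 0.05. Group means carry the SD of 4 muscles, and the small number of arrays limits the precision. Cdkn1a, the transfected gene, read 11.31, 11.72, 11.25 and 11.50 in p21 replicates 1 to 4, against 9.83, 9.92, 10.27 and 10.02 in control replicates 1 to 4, in the brightest of its 3 probes. That is 2.7-fold higher (limma adjusted p = 0.000421), although these probes do not tell the plasmid's transcript from the muscle's own. The labelled tissue showed in 8 muscle fiber markers, of which 7 had a brightest probe within 1 log2 unit of the array maximum, and 0 of these brightest probes passed the threshold (limma). A dimmer probe of Actn3, the alpha-actinin of fast fibers, averaged 13.34 ± 0.27 in p21 muscles and 13.87 ± 0.05 in control muscles (SD, n = 4 each). It lay below the near-maximum range and fell by 0.53 ± 0.11 with no overlap (limma adjusted p = 0.0206). The brighter Actn3 probes had changes of −0.14 and −0.10 and missed the threshold (limma adjusted p = 0.11 and 0.42). Des, whose brightest probe also lay below the near-maximum range, had a change of 0.13 ± 0.06 and missed it too (limma adjusted p = 0.232). In 3 of the 8 brightest probes, those of Ckm, Tnnt3 and Actn3, the groups did not overlap. Their changes were −0.06, −0.10 and −0.14. Over all genes 18.5% showed no overlap, 10.3% with p21 muscles lower. Acta1 had a change of 0.06 with overlap, and the median change of the 8 markers was −0.03. In bulk muscle, fewer cells of a type and less RNA per cell cannot be told apart. Nothing says that the muscles of a group came from separate mice, so a p-value weighs a difference only against the spread among these arrays, part of which may be technical.

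Among the 8 measured members, Hk2 fell in p21 muscles, 2 of the 3 Pfkm probes fell, and no member rose. Counted by the brightest probe of each gene, 1 of 8 members was lower, where 4.79% of all genes were called lower. The count of 0 higher stands beside 4.24% of all genes. Counted by probe, 3 of 13 passed the threshold, all lower, against a background of 8.03% of all probes in either direction, 3.68% higher and 4.35% lower. In those 3 probes alone the groups did not overlap, as they did not in 16.7% of all probes, with the p21 muscles lower in 9.34%. The median change of the members was −0.07, against −0.004 over all genes. By estimate, 10 of the 13 probes were lower in p21 muscles. A count of 1 or 3 is small, and the background differs with brightness, which is high in most members.

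Members sat at the top of the array. A value within 1 log2 unit of the highest one, that is at or above 14.27, is called near the maximum here. Of the 13 member probes, 7 had a mean near the maximum, in Pfkm (2 probes), Aldoa, Tpi1, Gapdh, Pgam2 and Eno3. Only 95 of the 25697 probes lay there. The deposited arrays share one distribution of values, so that a value at the top follows from the probe's rank on its array. Rank 1 stood for 15.27, rank 10 for 15.04, rank 50 for 14.62 and rank 100 for 14.28. Beta enolase Eno3 held ranks 5 to 10 in p21 muscles and 3 to 7 in control muscles. Aldoa held ranks 12 to 15 in p21 muscles and 11 to 14 in control muscles.

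The share of probes called depended on brightness over the whole table. It was 5.35% for probes with a mean below 10, 22.9% from 10 to 12, 32.4% from 12 to 14.27 and 10.5% near the maximum. Called lower in p21 muscles were 2.77%, 13%, 19.2% and 6.32% of the probes in these classes, in the same order. The median size of the change, without sign, was 0.25 from 12 to 14.27 and 0.10 near the maximum. The median within-group SD was also smaller near the maximum, at 0.07, against 0.13 from 12 to 14.27. In 14 genes a brightest probe near the maximum stood beside another probe at 11 or more but below that range. The members Pfkm and Tpi1 are among these genes. The dimmer probe had the larger change in 12 of the 14. The median size of the change over the 14 genes was 0.34 in the dimmer probe and 0.14 in the near-maximum one. Whether saturation or rank compression makes up this difference was not tested.

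**Figure D1:**
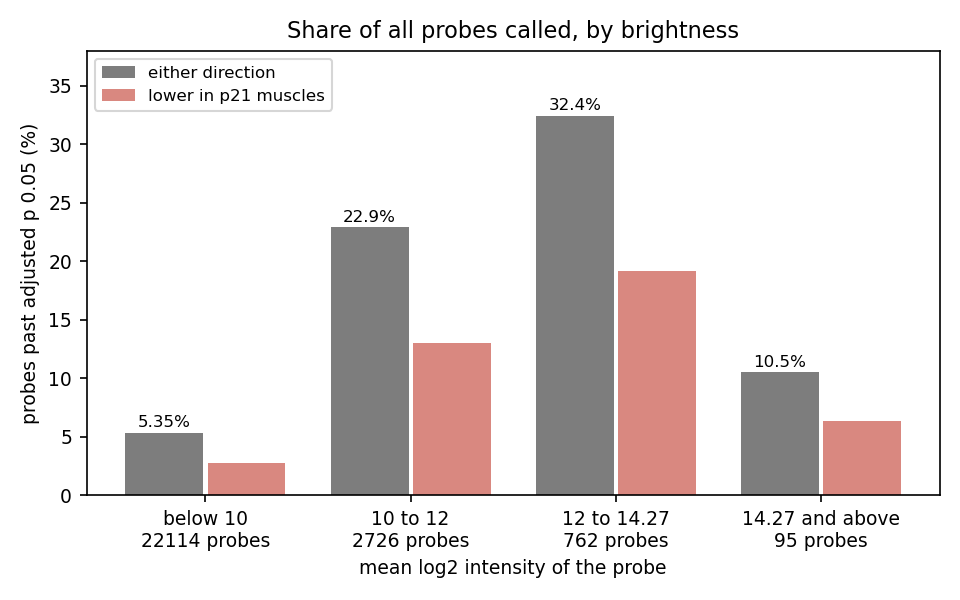
Bars give the percentage of all probes past limma adjusted p 0.05 (y axis) in 4 classes of mean log2 intensity (x axis), in either direction (grey) and lower in p21 muscles (red). The share called was 32.4% among probes from 12 to 14.27 and 10.5% among the 95 probes at 14.27 and above, where most members lie.

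Hexokinase traps glucose in the cell as glucose 6-phosphate, and Hk2 (Entrez gene 15277) encodes the form that predominates in insulin-sensitive muscle. Its probe read 13.35, 12.62, 13.39 and 13.08 in p21 replicates 1 to 4, against 13.76, 13.63, 13.69 and 13.57 in control replicates 1 to 4. Every p21 muscle lay below every control muscle, and p21 replicate 2 was the lowest. The means were 13.11 ± 0.35 in p21 muscles and 13.66 ± 0.08 in control muscles (SD, n = 4 each), a change of −0.55 ± 0.14, or 1.47-fold lower (limma adjusted p = 0.0374). The exact two-sided permutation test of that probe over 70 regroupings gave p = 0.0286, the smallest that 4 against 4 allows, unadjusted over the 8 members. Of probes as bright as Hk2, from 12 to 14.27, 19.2% were called lower. Without p21 replicate 2 the change was −0.39 (limma adjusted p = 0.0146). Leaving out any control muscle, or p21 replicate 4, ended the call, with limma adjusted p from 0.0627 to 0.107 and changes from −0.58 to −0.52.

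Phosphofructokinase adds the second phosphate and commits the sugar to glycolysis, and Pfkm (Entrez gene 18642) encodes its muscle subunit. The 3 Pfkm probes gave different answers. The brightest, near the maximum, read 14.87, 14.66, 14.80 and 14.79 in p21 muscles and 14.92, 14.92, 14.85 and 14.88 in control muscles. The groups overlapped in it, and its change of −0.11 ± 0.05 missed the threshold (limma adjusted p = 0.235). The second Pfkm probe read 14.30, 13.89, 14.23 and 14.08 in p21 muscles and 14.48, 14.48, 14.42 and 14.39 in control muscles. Its groups did not overlap, and it fell by 0.32 ± 0.08, or 1.25-fold lower (limma adjusted p = 0.0389). The dimmest Pfkm probe read 12.45, 11.77, 12.39 and 12.06 in p21 muscles, against 12.94, 12.80, 12.52 and 12.66 in control muscles. It also showed no overlap, and it fell by 0.56 ± 0.15, or 1.48-fold lower (limma adjusted p = 0.0407). The size of the change thus followed the brightness of the probe in reverse order, and p21 replicate 2 was the lowest muscle in all 3. Without p21 replicate 2 the called probes had changes of −0.24 and −0.43. With robust eBayes the second probe missed the threshold (limma adjusted p = 0.0525). Both calls ended when any control muscle or p21 replicate 4 was left out (limma adjusted p from 0.0535 to 0.123), and the mean of the 3 probes had a change of −0.33 (adjusted p = 0.0569).

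**Figure D2:**
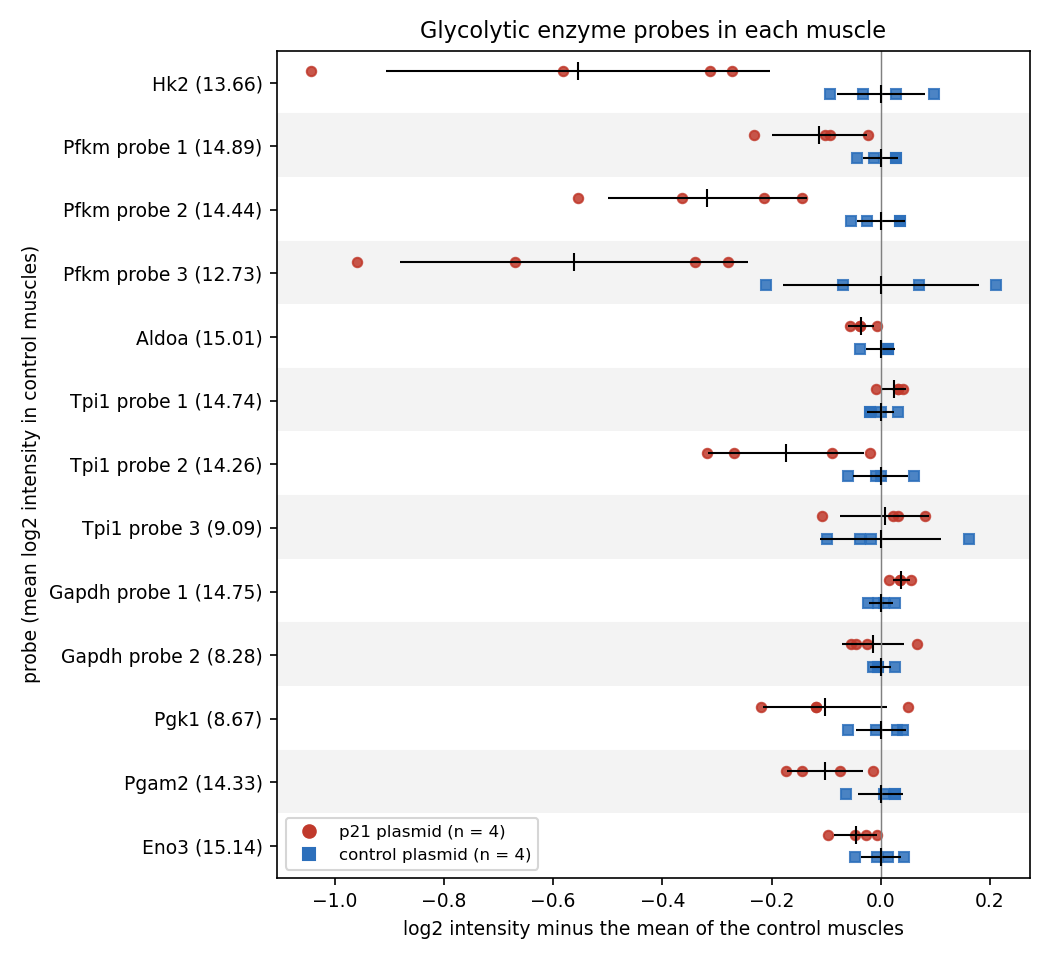
Each row is a member probe, numbered from the brightest where a gene has several, with its control mean in parentheses, and the x axis gives log2 intensity minus the control mean in each p21 muscle (red circles) and control muscle (blue squares). Black bars give mean ± SD (n = 4), and Hk2 and Pfkm probes 2 and 3 are the rows in which all p21 muscles lie below all control muscles.

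The enzymes of the middle of the pathway had small changes near the top of the array. Aldolase, encoded in muscle by Aldoa, splits the sugar into 2 triose phosphates. Its probe read 15.00, 14.97, 14.97 and 14.95 in p21 muscles, against 14.97, 15.02, 15.02 and 15.02 in control muscles. The groups overlapped, with a change of −0.04 ± 0.04 and a 95% interval from −0.13 to 0.05 (limma adjusted p = 0.689). Gapdh, the dehydrogenase that captures the first energy-rich phosphate and a common normalising transcript, read 14.79, 14.77, 14.79 and 14.81 in p21 muscles and 14.75, 14.76, 14.73 and 14.78 in control muscles. Its values overlapped in a band of less than 0.1, and its change of 0.04 ± 0.04 had a 95% interval from −0.06 to 0.13 (limma adjusted p = 0.678). The second Gapdh probe lay at the floor of the array, at 8.27 ± 0.06 in p21 muscles and 8.28 ± 0.02 in control muscles (SD, n = 4 each), and informs on no level.

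Triose phosphate isomerase, encoded by Tpi1, interconverts the products of aldolase. Its brightest probe read 14.77, 14.78, 14.77 and 14.73 in p21 muscles, against 14.72, 14.77, 14.74 and 14.72 in control muscles. Its change was 0.02 ± 0.04 (limma adjusted p = 0.818), and the sign turned to −0.05 when the gene's 3 probes were averaged. The second Tpi1 probe, just below the near-maximum range, read 14.24, 13.99, 14.17 and 13.94 in p21 muscles and 14.26, 14.20, 14.32 and 14.25 in control muscles. Of the p21 muscles, 3 lay below every control muscle, and the change of −0.17 ± 0.07 missed the threshold (limma adjusted p = 0.179). The dimmest Tpi1 probe, at 9.10 ± 0.08 in p21 muscles and 9.09 ± 0.11 in control muscles (SD, n = 4 each), had a change of 0.01 ± 0.07.

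Phosphoglycerate kinase makes the first ATP of the pathway, and its gene Pgk1 had a single probe that was dim. It read 8.72, 8.55, 8.45 and 8.55 in p21 muscles, against 8.61, 8.66, 8.71 and 8.70 in control muscles. The groups overlapped, with a change of −0.10 ± 0.06 (limma adjusted p = 0.342). A probe so near the floor of 8.13 says little about an enzyme that every glycolytic cell uses. On a scale with the lowest value subtracted the size of the change was larger, at −0.33, and still missed the threshold (limma adjusted p = 0.305).

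Pgam2, the muscle phosphoglycerate mutase, read 14.32, 14.19, 14.26 and 14.16 in p21 muscles and 14.34, 14.36, 14.27 and 14.36 in control muscles. The overlap was small, and the change of −0.10 ± 0.06 missed the threshold (limma adjusted p = 0.318; 95% interval from −0.22 to 0.02). Eno3, the beta enolase of muscle fibers, read 15.13, 15.09, 15.04 and 15.11 in p21 muscles, against 15.13, 15.15, 15.18 and 15.09 in control muscles. Its groups overlapped, with a change of −0.05 ± 0.04 and a 95% interval from −0.14 to 0.05 (limma adjusted p = 0.602). Eno1b, a gene closely related to Eno1 whose probe the naming rule leaves out, read 11.27 ± 0.07 in p21 muscles and 11.39 ± 0.06 in control muscles (SD, n = 4 each), a change of −0.11 ± 0.08 (limma adjusted p = 0.459). Copies this alike may share signal on the array, so this value is uncertain for either gene.

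**Figure D3:**
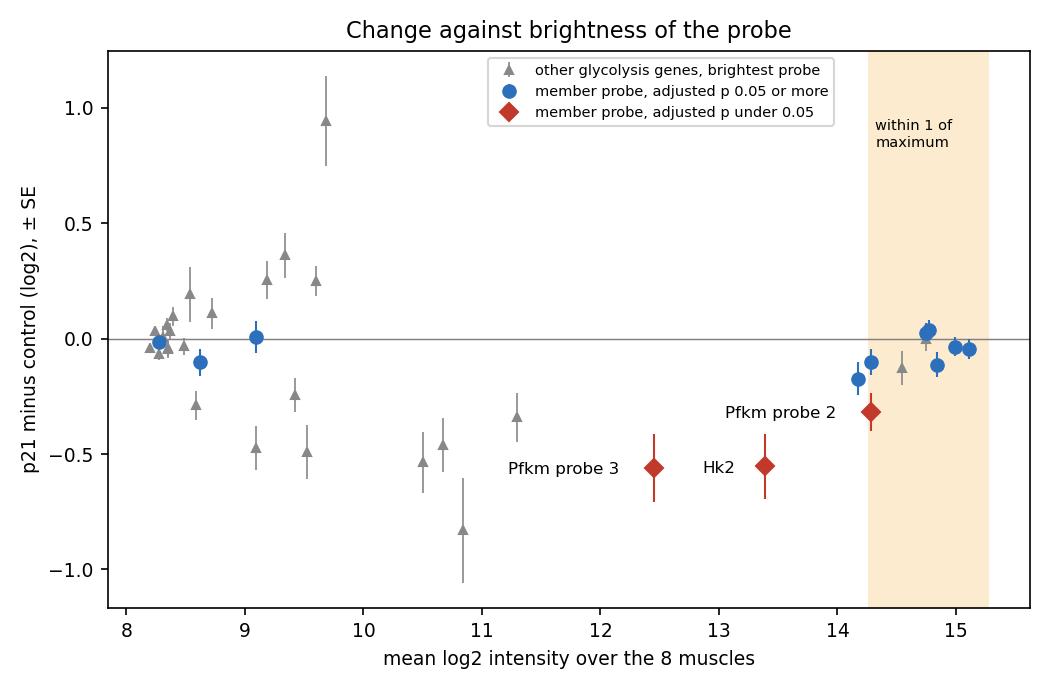
Points give the change in log2 units ± SE, p21 less control (y axis), against mean log2 intensity over the 8 muscles (x axis) for the 13 member probes and for the brightest probe of 26 other glycolysis genes (grey triangles), and the shaded range lies within 1 of the array maximum. The 3 called member probes (red diamonds) are Hk2 and Pfkm probes 2 and 3, and the brightest members lie close to 0.

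The p21 muscles spread more widely than control muscles in the probes that fell, a difference in SD that was not tested. The SD of Hk2 was 0.35 in p21 muscles and 0.08 in control muscles, and that of the second Pfkm probe was 0.18 in p21 muscles and 0.04 in control muscles. Of the 13 member probes, 4 had their lowest value in p21 replicate 2, 4 in p21 replicate 4 and 3 in p21 replicate 3. The mean over the 8 members' brightest probes was 13.87, 13.70, 13.81 and 13.77 in p21 replicates 1 to 4, against 13.90, 13.91, 13.90 and 13.89 in control replicates 1 to 4. Hk2 changed most of these 8 probes, by −0.55. Summed on the linear scale, these probes gave 174381 to 186207 in p21 muscles and 187287 to 190220 in control muscles, a range that did not overlap. The brightest probes weigh most in such a sum. Of single genes, 18.5% showed no overlap, 10.3% with p21 muscles lower. No such share was computed for sums of several genes, for these or for the marker lists below. Of 12 measured macrophage markers 6 were called higher, where 4.24% of all genes were called higher and 4.79% lower. The summed linear intensity of these markers was 45874 to 66849 in p21 muscles, against 19547 to 35589 in control muscles. None of the 12 lay below the median probe in both groups, but Itgam, at 8.42 in p21 muscles and 8.32 in control muscles, lay about the median of 8.39. Sums of 3 other marker lists also did not overlap. Satellite cell markers summed to 3868 to 4132 in p21 muscles and 2732 to 3140 in control muscles, with Vcam1 and Itga7 of 5 called higher and Pax7 and Myf5 below the median probe. Endothelial markers summed to 3025 to 3196 in p21 muscles and 3308 to 4057 in control muscles, with Tek of 5 called lower and Kdr below the median probe. Red blood cell markers summed to 673 to 724 in p21 muscles and 758 to 822 in control muscles, with Alas2 of 2 called lower and Hba-a1 below the median probe. The fibroblast sums overlapped, at 29417 to 43860 in p21 muscles and 25431 to 38596 in control muscles, with 1 of 5 called higher. The same sum for muscle fiber markers was 236023 to 250908 in p21 muscles and 245794 to 250252 in control muscles. The part of other cells in the members' values was not tested.

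Other tissues use sister genes in place of the muscle enzymes. Of 9 measured genes of that kind, 3 rose, 0 fell and 6 did not pass the test. Over all genes, 4.24% were called higher and 4.79% lower. Aldoc, Gapdhs and Pgk2 among the 6 lay below the median probe in both groups, so their probes say little. The median change of the 9 genes was 0.19. Hk3, a hexokinase of white blood cells, read 9.82, 9.93, 10.19 and 10.68 in p21 muscles, against 8.82, 9.05, 9.63 and 9.35 in control muscles. Every p21 muscle exceeded every control muscle, and Hk3 rose by 0.94 ± 0.20, or 1.92-fold (limma adjusted p = 0.0202). C1qc, among the 6 of 12 macrophage markers called higher, rose 2.81-fold in the same muscles (limma adjusted p = 0.00711). The other 6 were not called, and Cd163 among them had a change of −0.17 (limma adjusted p = 0.25). The part of such cells in Hk3 was not tested.

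Phosphofructokinase has liver and platelet subunits beside the muscle one. Pfkl, the liver subunit, read 9.69, 9.84, 9.63 and 9.73 in p21 muscles and 9.44, 9.43, 9.53 and 9.52 in control muscles. It rose by 0.25 ± 0.07 (limma adjusted p = 0.0432), while its dimmer probe had a change of −0.04 with overlap. Pfkp, the platelet subunit, read 9.36, 9.38, 9.69 and 9.65 in p21 muscles and 8.98, 9.16, 9.35 and 9.16 in control muscles. It rose by 0.36 ± 0.10 (limma adjusted p = 0.0446), and its dimmer probes had changes of 0.12 and 0.02. Pgam1, the mutase of most tissues, had a change of 0.25 ± 0.08 and missed the threshold (limma adjusted p = 0.0859), although its groups did not overlap. Hk1, at 8.44 ± 0.06 in p21 muscles and 8.35 ± 0.05 in control muscles (SD, n = 4 each), lay at the level of the median probe. With the replicate number as a block, Pgam1 was called too.

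A sister gene was also set against its muscle counterpart within each muscle, for 5 of 7 pairs with probes on the array. The Eno1 and Ldhb pairs are not analysed here. A difference between 2 probes has no meaning as a level. Nor does its shift between groups show unequal change of the transcripts, since each pair but 1 has a member near the maximum (Pfkm, Pgam2 or Aldoa) and the other has Hk1, which like Aldoc lay within 0.1 of the median probe. Hk1 minus Hk2 was −4.66 ± 0.41 in p21 muscles and −5.32 ± 0.13 in control muscles (SD, n = 4 each), a shift of 0.65 with no overlap (exact permutation p = 0.0286). Pgam1 minus Pgam2 shifted by 0.35 and Pfkl minus Pfkm by 0.36, both with no overlap (exact permutation p = 0.0286 each). Pfkp minus Pfkm shifted by 0.47 and Aldoc minus Aldoa by 0.10, and both overlapped (exact permutation p = 0.0571 each). These p-values are two-sided, over 70 regroupings, and unadjusted over the 5 pairs. If the replicate numbers mark pairs, no exact p under 0.125 can be reached, and the paired p of the first 3 pairs was 0.125. Without any 1 control muscle the Hk1 and Hk2 shift had exact permutation p = 0.0571, and so had the Pgam1 and Pgam2 shift without p21 replicate 2. Of the shift of 0.65, the change of Hk2 itself was −0.55 and that of Hk1 was 0.10.

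**Figure D4:**
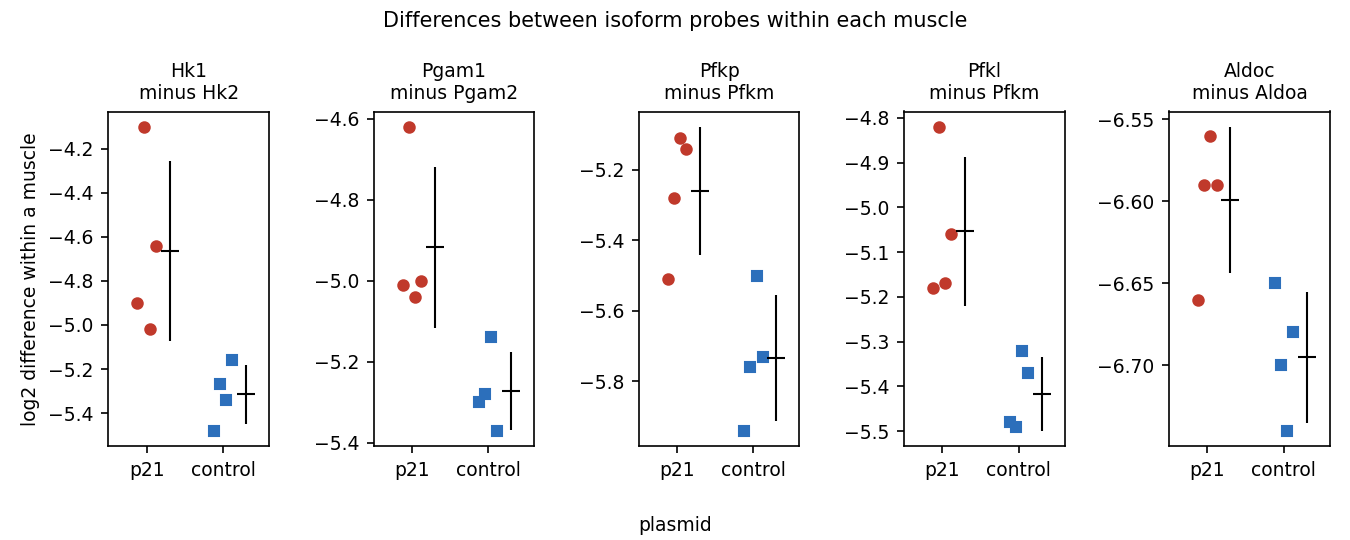
Each panel gives, for a pair of genes, the log2 difference between their brightest probes within each muscle (y axis) for 4 p21 muscles (red circles) and 4 control muscles (blue squares), with mean ± SD in black and a scale of its own. In the Hk1, Pgam1 and Pfkl panels every p21 muscle lies above every control muscle, and in the Pfkp and Aldoc panels the groups overlap.

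The last steps of the pathway were represented by 7 genes, of which 0 rose, 2 fell and 5 did not pass the test. Over all genes, 4.24% were called higher and 4.79% lower. Pklr, Ldhc and Slc16a1 among the 5 lay below the median probe in both groups, so their brightest probes say little. The median change of the 7 genes was −0.07. Pkm, the pyruvate kinase of muscle, read 14.55, 14.27, 14.62 and 14.48 in p21 muscles and 14.56, 14.65, 14.67 and 14.55 in control muscles, near the maximum and with overlap. Ldha, the lactate dehydrogenase subunit that predominates in fast muscle, read 14.75 ± 0.07 in p21 muscles and 14.75 ± 0.05 in control muscles (SD, n = 4 each). Its change had a 95% interval from −0.12 to 0.11 (limma adjusted p = 0.998). Slc16a3, which encodes the lactate exporter of glycolytic fibers, read 9.02, 8.56, 9.01 and 8.84 in p21 muscles, against 9.42, 9.30, 9.35 and 9.25 in control muscles. It fell by 0.47 ± 0.09, or 1.39-fold lower (limma adjusted p = 0.0176), in its brightest probe, while its dimmer probes, at 8.42 and 8.27 on average, had changes of 0.003 and −0.03. Ldhd, the mitochondrial D-lactate dehydrogenase, fell by 0.49 ± 0.12, or 1.4-fold lower (limma adjusted p = 0.0303), in its brightest probe. None of its 3 probes overlapped, but the dimmest had a change of −0.20 and missed the threshold (limma adjusted p = 0.173).

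Regulators and side branches of glycolysis included 4 of 10 measured genes that fell, 0 that rose and 6 that did not pass the test. The median change was −0.27. Over all genes, 4.24% were called higher and 4.79% lower. Fbp1 and Bpgm among the 6 lay below the median probe in both groups, so their probes say little. Fbp2, the muscle fructose bisphosphatase that opposes phosphofructokinase, read 10.82, 9.65, 10.90 and 10.33 in p21 muscles, against 11.40, 11.10, 11.40 and 11.12 in control muscles. It fell by 0.83 ± 0.23, or 1.78-fold lower, with no overlap (limma adjusted p = 0.0464). Gpd1 and Gpd2, the cytosolic and mitochondrial enzymes of the glycerol phosphate shuttle, which returns glycolytic NADH to the electron chain, fell by 0.54 ± 0.13 (limma adjusted p = 0.0334) and by 0.46 ± 0.12 (limma adjusted p = 0.0379). The dimmer Gpd2 probe, at 8.29 on average, had a change of −0.02 with overlap. Gpd1 read 10.44, 9.78, 10.43 and 10.30 in p21 muscles and 10.79, 10.84, 10.69 and 10.76 in control muscles. Tigar, a p53-regulated phosphatase that lowers fructose 2,6-bisphosphate, fell by 0.29 ± 0.06, or 1.22-fold lower (limma adjusted p = 0.0245), at 8.44 ± 0.11 in p21 muscles and 8.73 ± 0.10 in control muscles (SD, n = 4 each). Its probe, at 8.59 on average, was dimmer than the Pgk1 probe at 8.62 and lay as near the floor of 8.13. Pfkfb2 and Pfkfb4, which set the level of fructose 2,6-bisphosphate, an activator of phosphofructokinase, had changes of −0.25 ± 0.07 and −0.34 ± 0.11. Both missed the threshold (limma adjusted p = 0.0649 and 0.0726). With the replicate number as a block, Pfkfb2 and Pfkfb4 were called too, which made 8 falls over the 3 lists. Hif1a, which encodes the hypoxia-inducible factor that drives many glycolytic genes, had a change of 0.11 ± 0.07 (limma adjusted p = 0.398).

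**Figure D5:**
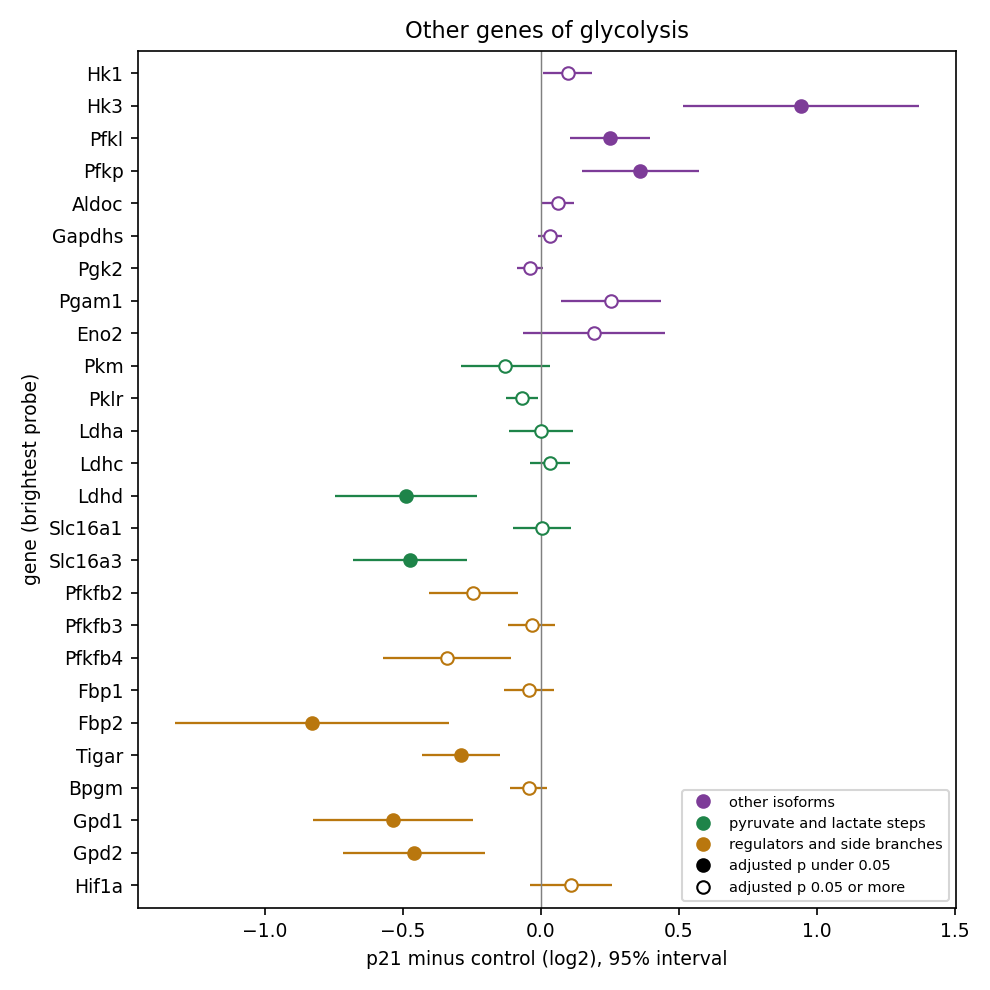
Points give p21 minus control on the log2 scale with its 95% interval (x axis) for the brightest probe of 26 other genes of glycolysis (y axis), coloured by group, with filled points for limma adjusted p under 0.05. The filled points right of 0 are Hk3, Pfkl and Pfkp, and the 6 filled points left of 0 are Ldhd, Slc16a3, Fbp2, Tigar, Gpd1 and Gpd2.

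Over these 26 genes, 3 rose and 6 fell, where 4.24% of all genes were called higher and 4.79% lower. Fbp2, Gpd1 and Gpd2 had means from 10 to 12, where 13% of probes were called lower. The other called genes had means below 10, where 2.77% of probes were called lower and 5.35% in either direction. That class holds 22114 of the 25697 probes. All of these genes but Tigar had means from 9.10 to 9.68, brighter than at least 74.8% of all probes. The share called among probes of that brightness was not computed. All 9 called genes had groups that did not overlap, and 12 of the 26 showed no overlap, against 18.5% of all genes. The counts depended on which arrays were in the fit. Without control replicate 1, control replicate 2 or p21 replicate 4 none of the 26 was called, and limma called 379, 391 and 159 probes of the whole table in those fits, against 2064 with all arrays. Without control replicate 3 or control replicate 4 the falls were Slc16a3 and Tigar, and without p21 replicate 2 all 6 falls were called. The mean of a gene's probes in place of the brightest gave 1 rise and 3 falls, and eBayes without an intensity trend gave 2 falls.

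The genes outside these lists whose pattern was most like that of the members were Abcf1, Ubap2, Chtop, Tufm and Tex261. Likeness was the root mean square difference, over 8 muscles, between a gene's deviations from its own mean and the members' mean deviations, among 2785 genes with a mean above 10. It was 0.0281 for Abcf1 and 0.0315 for Tex261, the first and the last of these 5. Abcf1 read 11.64, 11.42, 11.49 and 11.51 in p21 muscles and 11.61, 11.64, 11.62 and 11.57 in control muscles. None of the 5 passed the threshold, with limma adjusted p from 0.42 to 0.596. The members' mean deviations weigh 8 genes alike, and Hk2 had the largest change (−0.55). Aldoa, Tpi1, Gapdh and Eno3 had changes from −0.05 to 0.04, so the pattern does not describe each member.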

How the data were processed

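Total RNA was amplified and biotin-labelled for 1-colour Illumina arrays, per the labels' protocols. The authors deposited log2 intensities. How the array software corrected background and normalized them is not stated in the labels or file headers. Once sorted, the 8 arrays matched within 0.00073, as after quantile normalization, which removes differences in total RNA and fixes the top values by rank. No probe was filtered and no detection calls were used. Genes came from the platform annotation: 23978 probes had 1 symbol and 1719 are unnamed here, and 23962 matched a RefSeq gene number. No probe coordinates are given.

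The p21 and control arrays entered one limma fit (limma 3.58.1, R 4.3.3; lmFit, eBayes with an intensity trend, two-sided, Benjamini-Hochberg over all probes), a step tested on simulated data. A gene's brightest probe stands for it. Named are all member probes, Cdkn1a, called or paired genes of 3 glycolysis lists (30 genes, 26 measured) and the 5 genes of most similar pattern; other genes of those lists, Eno1b, C1qc and other named cell markers were picked after their values were seen. Members and lists were chosen with earlier results of these data known. Deviations from group means of arrays with the same replicate number correlated at 0.483, 0.264, 0.212 and 0.181. Control replicates 3 and 4 correlated more with p21 replicates 4 (0.448) and 2 (0.297). These values do not settle whether the numbers mark pairs, and the labels do not say. The main fit left the arrays unpaired, and an alternative fit paired them by replicate number. With that number as a block 3186 probes passed, against 2064 without it.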

Additional observations from a re-analysis of the deposited data

Results flagged for a closer look

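Among the 50 groups of 4 muscles formed by the probes of the members and Cdkn1a and by the called genes of the other lists, 3 held a muscle far from the other 3 by Dixon's test, where chance gives about 1 in 20. Gpd2 read 10.07 in p21 replicate 2, against 10.53 to 10.61 in the other p21 muscles. Aldoa read 14.97 in control replicate 1, against 15.02 in each other control muscle, where 3 muscles share a rank and hence a value. Tigar read 8.87 in control replicate 1, against 8.66 to 8.70 in the other control muscles.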

How the results depend on the processing

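No member was called higher under any of 21 alternatives. The count of member genes lower, 1 with all arrays, was 0 with eBayes without the trend and at adjusted p 0.01, and 0 to 1 with an array left out. It was 2 (Hk2 and Pfkm) with the brightest probe below the near-maximum range, a choice made after seeing the data. Aldoa, Pgam2 and Eno3 have no such probe and dropped out there, and the Gapdh probe used lay at the floor. That count is thus not out of all 8 members. Member probes past the threshold numbered 0 without the trend and at 0.01, 2 with robust eBayes (the second Pfkm probe was lost), and 0 to 3 with an array left out. The 3 rises of the other genes became 1 with the mean of a gene's probes, 0 at 0.01 and 0 to 2 with an array left out, while 4 rose with the replicate block and at 0.1. Their 6 falls became 2 without the trend, 3 with probe means, 0 at 0.01 and 0 to 7 with an array left out, and 8 (Pfkfb2 and Pfkfb4 added) with the replicate block, with probes brighter than the median probe and at 0.1. Over all probes 3186 passed with the replicate block, 133 at 0.01, 3490 at 0.1 and 159 to 2162 with an array left out, against 2064. The block changed no member's call. The Tpi1 change turned to −0.0474 with probe means. For isoform pairs the replicate block kept the shifts of 0.65 (Hk1 and Hk2), 0.35 (Pgam1 and Pgam2) and 0.36 (Pfkl and Pfkm) at exact paired p = 0.125. With the background subtracted Hk1 minus Hk2 shifted by 1.02 (exact permutation p = 0.0571) and Aldoc minus Aldoa by 0.36 (p = 0.0286 in the same exact test), and with probe means Pfkp minus Pfkm shifted by 0.50 (exact p = 0.0286). With an array left out the shifts ran from 0.46 to 0.77 for Hk1 minus Hk2, 0.26 to 0.40 for Pgam1 minus Pgam2, 0.40 to 0.56 for Pfkp minus Pfkm, 0.28 to 0.40 for Pfkl minus Pfkm and 0.0796 to 0.12 for Aldoc minus Aldoa. The exact permutation p went to 0.0571 for Hk1 minus Hk2 without any 1 control array and for Pgam1 minus Pgam2 without p21 replicate 2, and to 0.0286 for Pfkp minus Pfkm and Aldoc minus Aldoa without p21 replicate 1. The causes were not tested, beyond the fewer arrays in the fits with one left out. Dim probes near 8.13 and probes near 15.27 limit what changes can be seen.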
